A study of Mus musculus with 12 samples.

Results

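The genes examined here were 10 genes of IL-4 signaling, out of 56941 genes in the count tables. They were the receptor chains Il4ra, Il13ra1 and Il2rg, the kinases Jak1, Jak3 and Tyk2, the transcription factor Stat6, and the feedback inhibitors Socs1, Socs3 and Cish. They were chosen by name as the members of this pathway and matched by Ensembl identifier, and all 10 passed the filter on low counts in every comparison. RNA was measured in bone marrow-derived macrophages of C57BL/6J mice, either wild type (WT) or lacking miR-210 (miR-210 KO, here KO) in all tissues, the germline deletion having been made from a floxed miR-210 allele and a Gata-1 Cre, and WT and KO mice both came from matings of heterozygous mice. Monocytes were purified by negative selection and grown for 7 days in serum and the supernatant of L929 fibroblasts, a source of the growth factor M-CSF, which gave macrophages in both genotypes. M2 macrophages were then given 20 ng/mL of IL-4 for 72 h, while the M0 cells were kept alongside for the same time without IL-4. There were 3 libraries in each of the 4 groups WT M0, KO M0, WT M2 and KO M2, with 7930525 to 10167695 counts per library. The ages of the mice were not given in the sources used here, nor was it stated that the 3 libraries of a group came from separate animals, so the p-values measure the spread between libraries. Each group also carried its own batch number in the labels, and batch and group cannot be told apart. The positions given below are those of GRCm39, and all 10 genes are annotated as protein-coding.

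IL-4 binds its receptor alpha chain, encoded by Il4ra, and the complex then recruits a further chain. In the type I receptor this is the common gamma chain, encoded by Il2rg, and in the type II receptor, which also binds IL-13, it is the chain encoded by Il13ra1. JAK1 is bound to the IL-4 receptor alpha chain, JAK3 to the common gamma chain, and TYK2 or JAK2 to the IL-13 receptor chain. These kinases phosphorylate STAT6, which moves to the nucleus and activates the genes of alternative activation in macrophages. SOCS1, SOCS3 and CIS, the product of Cish, are SH2-domain proteins that are themselves induced by cytokines through STAT proteins and that act back on the receptors and kinases.

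The libraries were first checked against their labels. The precursor gene Mir210 (chromosome 7, 140801297 to 140801406) had counts of 1, 3 and 5 in WT M0 and of 1, 2 and 1 in WT M2 libraries. It had 0 counts in all 6 KO libraries, although counts this low in WT say little for a single library. All 8 macrophage markers, which included Cd68, Adgre1 and Csf1r, had a mean over 10 CPM (counts scaled to the library total after TMM). Their summed level was 9240 to 10401 CPM in M0 and 7529 to 8292 CPM in M2 libraries, and the most abundant was Lyz2. No marker of another cell type reached a mean of 10 CPM over the 12 libraries, although Zbtb46 did so in M2 alone, with means of 14.8 CPM in WT M2 and 10.96 CPM in KO M2. Cd3e, Cd3g and Ncr1 of the 8 T and NK cell markers, Ms4a1 of the 5 B cell markers, Ly6g of the 7 neutrophil markers and Fcer1a of the 7 mast cell, basophil and eosinophil markers had 0 counts in all 12 libraries. The most abundant of these in M2 was Zbtb46 of the 5 dendritic cell markers, at 0.193 to 0.670 CPM in M0 and 9.45 to 17.6 CPM in M2 libraries. It moved with IL-4, and its part in the results below was not tested. The summed T and NK cell markers reached at most 5.48 CPM, with Cd4 the most abundant, and the B cell markers 10.2 CPM, with Cd79b the most abundant. The summed neutrophil markers, led by S100a8, reached 4.92 CPM, and those of mast cells, basophils and eosinophils, led by Siglecf, rose from at most 0.603 CPM in M0 to 4.11 to 5.13 CPM in M2. The 8 fibroblast and erythroid markers summed to at most 4.19 CPM, and Hbb-bs, the most abundant of them, was listed only in WT libraries.

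Sequences of these genes that hold letters known from STAT binding or matching miR-210 are shown first. The mature miR-210-3p that is deleted in the KO mice is given from RefSeq, with its seed, bases 2 to 8 from the 5′ end, in capitals.
miR-210-3p: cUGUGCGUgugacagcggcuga

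The 7 bases that pair with this seed, ACGCACA, were searched in the 3′ ends after the stop codon of each gene's main GENCODE transcript. They occurred in 726 of 20798 genes with such a region, or 3.49%. Of the 10 members, Stat6 alone held them, at a single place, and Stat6 also held a match to seed bases 2 to 7, which 9.28% of genes have, at a further place. The Stat6 sites are printed with the matching bases in capitals. The Stat6 levels that bear on these matches are given with the transcription factor below, and a match of letters does not show that a site is used.
Stat6, 7-base match: aacacacACGCACAcacacata
Stat6, 6-base match: tgtatgacCGCACAgaacatgt

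STAT proteins bind inverted repeats of TTC and GAA, and STAT6 is known for a spacing of 4 bases. The promoters of the 10 genes, 250 bases before to 50 bases after the annotated start, were searched for TTCNNNNGAA and TTCNNNGAA, which read the same on both strands. Around the GENCODE starts, 3 of the 10 members held TTCNNNNGAA (Jak3, Socs1 and Cish), against 6.81% of 21654 protein-coding genes, and 2 held TTCNNNGAA (Socs1 and Socs3), against 8.84%. Around the RefSeq starts, matched to GRCm39 by sequence, none of the 10 held TTCNNNNGAA, against 6.95% of 32851 promoters, and 2 held TTCNNNGAA (Socs3 and Cish), against 8.3%. The annotated starts differ for all 3 genes that held TTCNNNNGAA. Socs1 starts at position 10603875 of chromosome 16 in GENCODE and at 10603400 in RefSeq, Cish at position 107173225 of chromosome 9 in GENCODE and at 107173858 in RefSeq, and Jak3 at position 72128692 of chromosome 8 in GENCODE and at 72129027 in RefSeq. The gene counts do not show which start was used. The promoters of the feedback genes are printed because Socs1 and Cish had the largest changes with IL-4 and Socs3 moved the other way (below), with matches to either motif in capitals. No match to the one motif overlapped a match to the other. For Socs1 and Cish the window with more matches is the one printed, and the RefSeq window of Socs1 held no match to either motif.

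The Socs1 promoter of GENCODE (GRCm39, chr16:10603826-10604125, minus strand) held 3 matches to TTCNNNNGAA, TTCCGAGGAA, TTCCTTTGAA and TTCCTGGGAA, that began at positions -172, -120 and -88 from the start, and TTCCAAGAA after the start.
Socs1: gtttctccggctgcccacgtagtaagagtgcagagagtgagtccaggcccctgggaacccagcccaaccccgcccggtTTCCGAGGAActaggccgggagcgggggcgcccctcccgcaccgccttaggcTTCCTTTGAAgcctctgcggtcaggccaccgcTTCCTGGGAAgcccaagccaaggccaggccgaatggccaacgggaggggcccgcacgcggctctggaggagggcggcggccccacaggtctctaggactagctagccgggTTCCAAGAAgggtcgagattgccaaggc

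The Cish promoter of RefSeq (GRCm39, chr9:107173608-107173907, plus strand) held TTCCTGGAA, which began at the start itself, and TTCTTGGAA, which began 11 bases after it. The GENCODE window of Cish held TTCTGAGGAA alone, at position -226.
Cish: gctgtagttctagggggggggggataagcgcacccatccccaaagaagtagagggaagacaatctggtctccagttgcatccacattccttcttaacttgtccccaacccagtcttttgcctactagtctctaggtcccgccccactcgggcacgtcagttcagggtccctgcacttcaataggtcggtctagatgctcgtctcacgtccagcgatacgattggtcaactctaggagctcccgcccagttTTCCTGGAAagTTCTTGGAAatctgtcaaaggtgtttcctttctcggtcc

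The Socs3 promoter of GENCODE (GRCm39, chr11:117860074-117860373, minus strand) held a single match, TTCTTAGAA, at position -223, and the RefSeq window held the same match.
Socs3: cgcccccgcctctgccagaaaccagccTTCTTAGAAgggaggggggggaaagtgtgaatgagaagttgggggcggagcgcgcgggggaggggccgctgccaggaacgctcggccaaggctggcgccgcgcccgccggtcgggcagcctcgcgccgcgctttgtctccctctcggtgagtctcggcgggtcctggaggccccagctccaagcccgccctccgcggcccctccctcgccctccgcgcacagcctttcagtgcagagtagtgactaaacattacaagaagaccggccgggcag

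IL-4 changed 7 of the 10 genes in WT macrophages and the same 7 in KO macrophages, in the same directions. Il2rg, Socs1 and Cish rose, Il4ra, Il13ra1, Jak3 and Socs3 fell, and Jak1, Tyk2 and Stat6 did not pass the test. A call required an adjusted p under 0.05 in edgeR's quasi-likelihood test, with Benjamini-Hochberg adjustment over all genes fitted, and a change of more than 1.2-fold either way. For IL-4 it was also limited to protein-coding genes with an average normalized count over 10, and for the interaction below no size of change was required. Among all 11134 such genes 45.4% were called in WT, 23.6% higher and 21.8% lower, and in KO 36.6% of 11116 were called, 18.5% higher and 18.1% lower. The count of 7 of 10 has to be read against these shares. The M0 and M2 libraries of the 7 genes did not overlap in either genotype, as was so for 60.8% of genes in WT and 50.7% in KO. The median absolute log2 fold change of the 10 genes was 0.91 in WT and 0.79 in KO, against 0.30 and 0.26 over all genes. In such bulk libraries, fewer cells that express a gene and less RNA per cell cannot be told apart.

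Among the receptor chains, the alpha chain and the IL-13 receptor chain fell with IL-4 and the common gamma chain rose. Il4ra (ENSMUSG00000030748, chromosome 7, 125151079 to 125182844) was at 506, 409.8 and 454 CPM in the WT M0 libraries and at 211, 251 and 220.5 CPM in the WT M2 libraries. In KO it was at 500.0, 435 and 478 CPM in M0 and at 281, 256 and 229 CPM in M2. Every M2 library was thus below every M0 library, by -0.99 on the log2 scale in WT (SE 0.086, adjusted p = 5.2e-07) and -0.86 in KO (SE 0.091, adjusted p = 8.8e-06). Il13ra1 (ENSMUSG00000017057, chromosome X, 35375461 to 35435331) showed the largest fall of the 10 genes in each genotype. It was at 43.7, 43.3 and 43.3 CPM in WT M0 and at 13.6, 14.8 and 17.8 CPM in WT M2. The KO libraries had it at 49.0, 46.8 and 51.2 CPM in M0 and at 14.3, 16.2 and 15.4 CPM in M2. The log2 fold changes were -1.49 in WT (SE 0.10, adjusted p = 4.4e-08) and -1.66 in KO (SE 0.098, adjusted p = 4.2e-08). Il2rg (ENSMUSG00000031304, chromosome X, 100307984 to 100311861), the common gamma chain, was at 82.0, 76.2 and 83.7 CPM in WT M0 and rose to 119, 125 and 143 CPM in WT M2. The KO libraries were at 92.5, 72.1 and 84.1 CPM in M0 and at 133, 126 and 113 CPM in M2. Its log2 fold change was 0.69 in WT (SE 0.078, adjusted p = 7.7e-06) and 0.60 in KO (SE 0.10, adjusted p = 0.00049). The chains that partner the alpha chain in its type I and type II receptors thus moved in opposite directions. Per length of exon, the ratio of Il2rg to Il13ra1 was 3.48 to 3.83 in WT M0 and 15.8 to 17.3 in WT M2 libraries. In KO the ratio was 3.05 to 3.74 in M0 and 14.5 to 18.5 in M2 libraries.

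Of the kinases, only Jak3 changed with IL-4. Jak3 (ENSMUSG00000031805, chromosome 8, 72123007 to 72143225), the partner of the common gamma chain, was at 19.0, 20.0 and 19.8 CPM in WT M0 and at 11.1, 10.5 and 10.5 CPM in WT M2. In KO it was at 15.6, 17.6 and 16.3 CPM in M0 and at 9.28, 10.7 and 9.84 CPM in M2. Its log2 fold change was -0.87 in WT (SE 0.11, adjusted p = 1.9e-05) and -0.71 in KO (SE 0.13, adjusted p = 0.00089), so that the kinase fell where the receptor chain it binds rose. Jak1 (ENSMUSG00000028530, chromosome 4, 101008838 to 101122487), the kinase of the alpha chain, lay between 211 and 235 CPM in all 12 libraries, and its M2 against M0 log2 fold change had a 95% interval of -0.15 to 0.12 in WT and -0.14 to 0.19 in KO. Tyk2 (ENSMUSG00000032175, chromosome 9, 21015363 to 21042689), the kinase of the type II receptor, lay between 71.2 and 88.3 CPM, and its interval was -0.26 to 0.092 in WT and -0.13 to 0.21 in KO. For Jak1 and Tyk2 the groups overlapped in every comparison, and the intervals leave out a log2 change as large as that of Jak3.

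Stat6 (ENSMUSG00000002147, chromosome 10, 127477821 to 127496862), the transcription factor that carries the signal, was at 147, 133 and 141 CPM in WT M0 and at 132, 145 and 128 CPM in WT M2. The KO libraries were at 142, 133 and 137 CPM in M0 and at 134, 136 and 133 CPM in M2. The 4 groups overlapped. The M2 against M0 log2 fold change was -0.04 in WT (95% interval -0.19 to 0.11) and -0.02 in KO (95% interval -0.17 to 0.14). For Stat6, which holds the matches to the miR-210 seed shown above, the KO against WT log2 fold change was -0.04 in M0 (95% interval -0.21 to 0.13) and -0.0048 in M2 (95% interval -0.13 to 0.13).

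The feedback inhibitors held both the largest rises and a fall. Cish (ENSMUSG00000032578, chromosome 9, 107173225 to 107179983) was at 2.42, 2.58 and 2.31 CPM in WT M0 and at 121, 120.2 and 131 CPM in WT M2. In KO it was at 3.01, 2.90 and 3.2 CPM in M0 and at 131, 127 and 149 CPM in M2. This was a 51.0-fold rise in WT (log2 fold change 5.67, SE 0.11, adjusted p = 2.0e-13) and a 45-fold rise in KO (5.49, SE 0.12, adjusted p = 1.1e-11). Among all genes that could be called, it ranked 76 in WT and 70 in KO by the size of its rise. Socs1 (ENSMUSG00000038037, chromosome 16, 10600104 to 10603875) was at 5.61, 4.64 and 7.23 CPM in WT M0 and at 127, 147 and 132 CPM in WT M2. The KO levels were 7.48, 5.99 and 7.70 CPM in M0 and 131, 129 and 111 CPM in M2. It rose 23.3-fold in WT (log2 fold change 4.54, SE 0.12, adjusted p = 8.1e-12) and 17.7-fold in KO (4.15, SE 0.12, adjusted p = 1.1e-10). Socs3 (ENSMUSG00000053113, chromosome 11, 117856905 to 117860898), best known as the inhibitor of receptors that signal through STAT3, moved the other way. It was at 37.4, 21.8 and 25.9 CPM in WT M0 and at 11.9, 17.2 and 13.6 CPM in WT M2. In KO it was at 23.1, 19.0 and 51.0 CPM in M0 and at 14.4, 9.76 and 9.59 CPM in M2. The third KO M0 library stood apart from the other KO M0 libraries for this gene. The log2 fold change was -0.96 in WT (SE 0.18, adjusted p = 0.00073) and -1.45 in KO (SE 0.32, adjusted p = 0.0036), and without that library the KO value was -0.90 (adjusted p = 0.019).

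**Figure D1:**
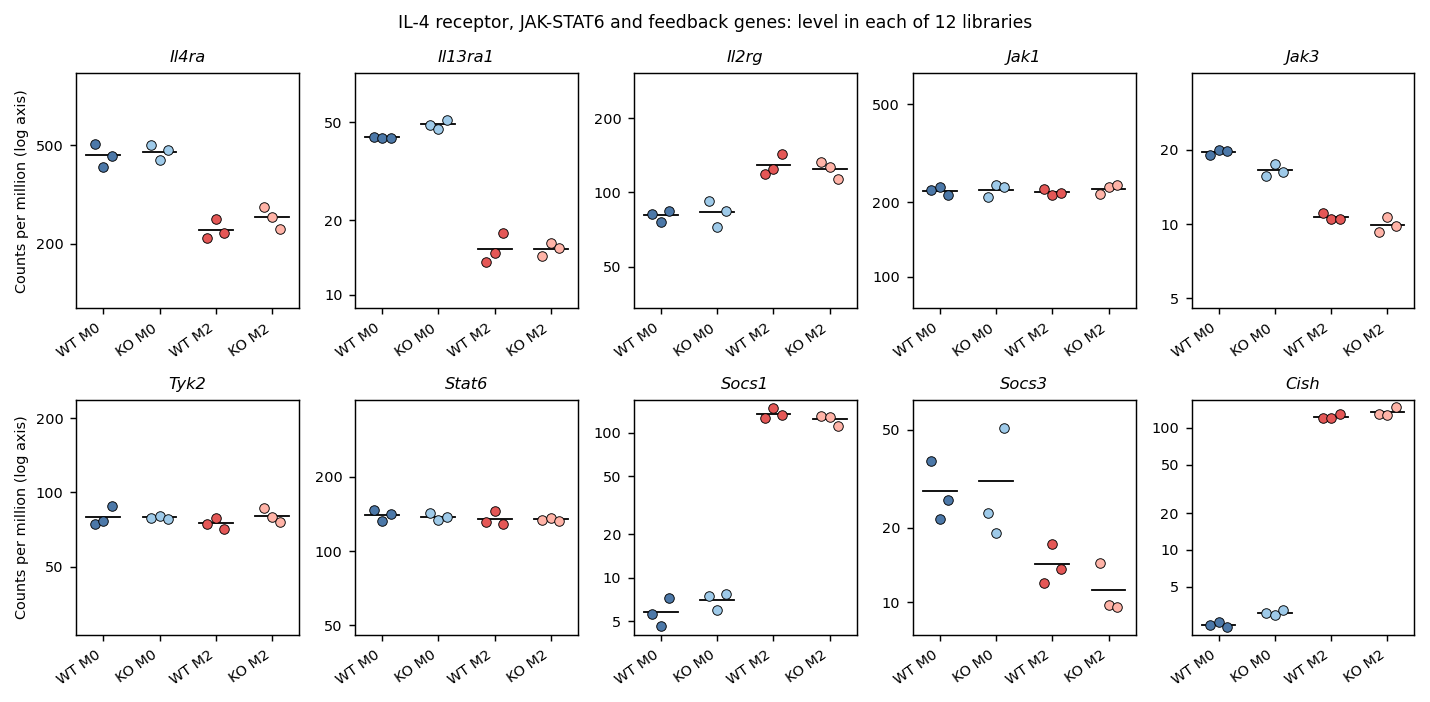
Level of each of the 10 genes in the 12 libraries, as CPM after TMM scaling on a log axis whose range differs between panels. Points are libraries, 3 per group, and the bar is the group mean; Cish rose from 2.31 to 3.2 CPM in M0 to over 120 CPM in M2, while Jak1, Tyk2 and Stat6 overlapped across all 4 groups.

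Per length of exon, which allows levels to be compared between genes, the order of the 10 genes differed between M0 and M2. In WT M0 the receptor chains stood first, with Il4ra at 45.8 ± 4.9 and Il2rg at 33.8 ± 1.7 CPM per kb (SD, n = 3). Stat6 at 21.0 ± 1.0 and Jak1 at 20.6 ± 0.81 CPM per kb followed and overlapped. Il13ra1 at 9.19 ± 0.050, Tyk2 at 9.12 ± 0.85 and Socs3 at 7.96 ± 2.3 CPM per kb each overlapped with the next. Jak3 at 2.52 ± 0.069, Socs1 at 1.72 ± 0.39 and Cish at 0.380 ± 0.021 CPM per kb stood last, with no overlap between neighbours. In WT M2 Il2rg stood first at 53.9 ± 5.2 CPM per kb, above Socs1 at 40.0 ± 3.1 and Il4ra at 22.8 ± 2.1, and these 3 did not overlap. Cish reached 19.3 ± 0.97 CPM per kb and overlapped with Stat6 at 20.2 ± 1.3, which overlapped with Jak1 at 20.3 ± 0.59. Tyk2 at 8.56 ± 0.43, Socs3 at 4.0 ± 0.75, Il13ra1 at 3.25 ± 0.46 and Jak3 at 1.37 ± 0.049 CPM per kb followed, and of these only Socs3 and Il13ra1 overlapped. Socs1, at 0.0690 to 0.102 of the Stat6 level per length in WT M0, was thus at 1.91 to 2.03 of it in WT M2, and Cish went from 0.0171 to 0.0202 of it to 0.865 to 1.07. The KO groups gave Il4ra first in M0 and Il2rg first in M2 too. There the corresponding ratios were 0.0889 to 0.111 and 1.64 to 1.93 for Socs1, and 0.0221 to 0.0243 and 0.970 to 1.17 for Cish. With the longest transcript as the length, Jak1 stood above Stat6 and Il13ra1 below Tyk2 and Socs3 in WT M0. In KO M2, Socs1 then fell below Il4ra and Jak1. In WT M2, Socs1 at 37.6 to 43.5 and Il4ra at 34.6 to 41.1 CPM per kb then overlapped. The WT M2 means with this length were 40.0 for Socs1, 28.8 for Stat6 and 26.4 CPM per kb for Cish, so the ratios to Stat6 given above depend on the length used.

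**Figure D2:**
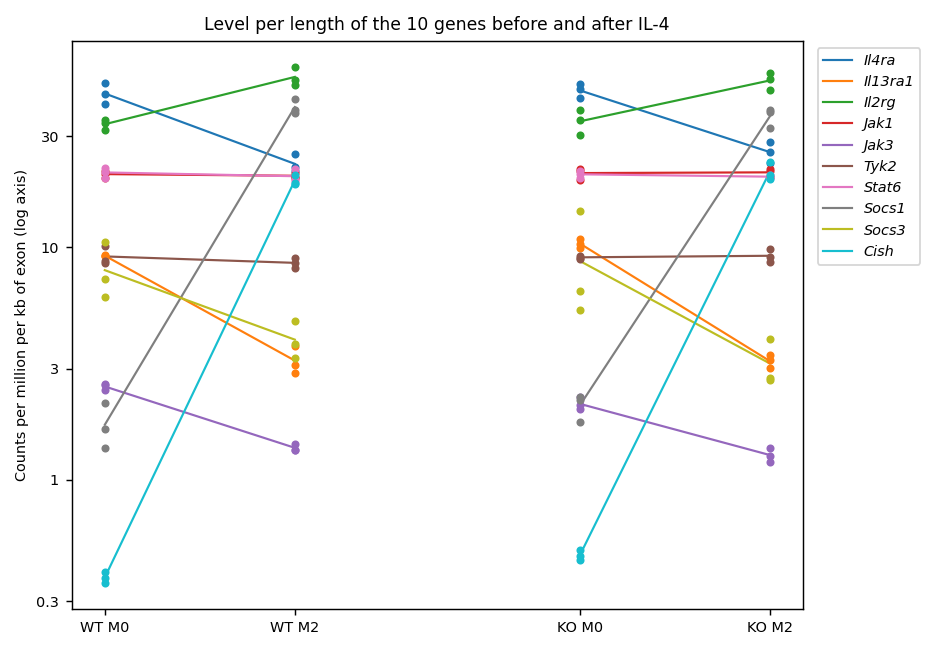
Level per length of the 10 genes, in CPM per kb of exon on a log axis, in M0 and M2 of each genotype. Points are libraries and lines join the group means; in WT, Socs1 goes from rank 9 in M0 to rank 2 in M2 and Cish from rank 10 to rank 6, whereas Jak1, Tyk2 and Stat6 stay level, and Il2rg replaces Il4ra as the highest.

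Loss of miR-210 was compared within each state, to ask whether the parts of the pathway differed between genotypes. None of the 10 genes was called, either in M0, where 0.461% of 14089 genes were called, or in M2, where 0.98% of 13980 were. DESeq2 also called none of the 10, and at an unadjusted p under 0.05 edgeR gave Jak3 in M0, with 1410 of all 14089 genes, and Il4ra in M2, with 1498 of all 13980 genes. The median absolute log2 fold change of the 10 genes was 0.09 in M0 and 0.10 in M2, against 0.12 and 0.09 over all genes. In M0, Jak3 was lower in each KO library than in each WT library (log2 fold change -0.26, 95% interval -0.50 to -0.02, adjusted p = 0.44 by edgeR). Il13ra1 was higher in each KO library (0.16, 95% interval -0.03 to 0.34, adjusted p = 0.58) and so was Cish (0.30, 95% interval -0.22 to 0.82, adjusted p = 0.74). These 3 of 10 genes did not overlap between genotypes in M0, as was so for 15% of all genes. In M2 all 10 overlapped, whereas 16.1% of all genes did not. The largest M2 differences were those of Socs3 (-0.35, 95% interval -0.71 to 0.01, adjusted p = 0.48 by edgeR) and Il4ra (0.17, 95% interval 0.01 to 0.33, adjusted p = 0.43). For Socs3 in M0 the log2 fold change was 0.13 with an interval of -0.56 to 0.82, and it became -0.44 without the third KO M0 library. The precision differed between genes. The 95% intervals of Jak1, Tyk2 and Stat6 stayed within 0.26 of 0 on the log2 scale in both states, and those of Socs1, Socs3 and Cish in M0 reached 0.72 to 0.82, so for these a difference of that size was not excluded.

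**Figure D3:**
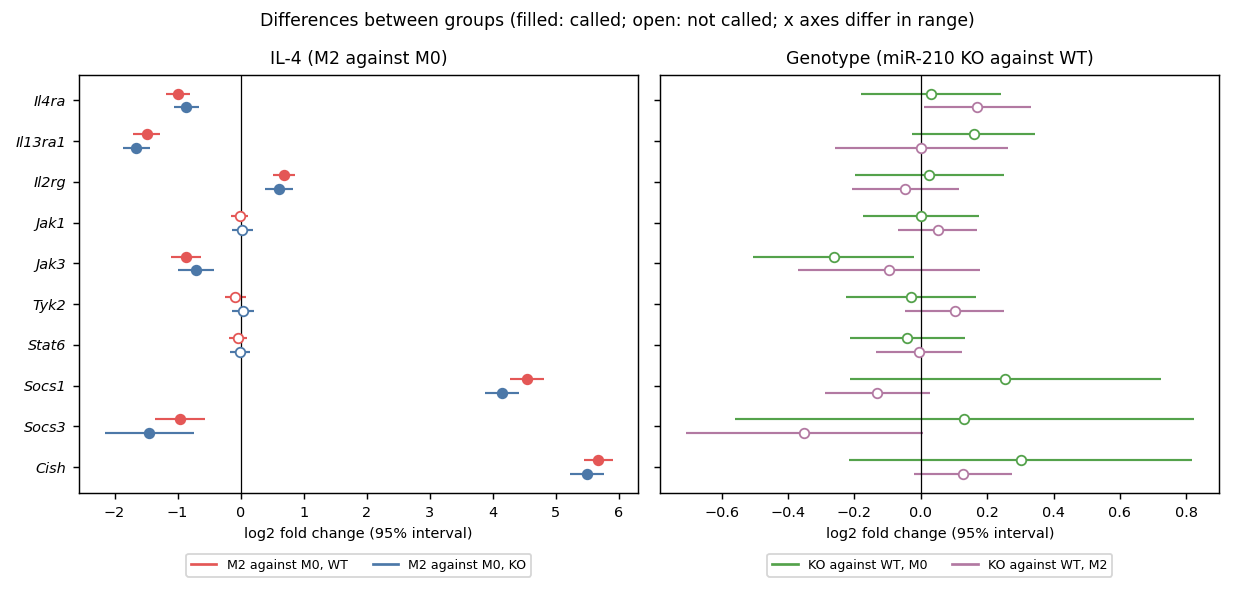
Log2 fold changes of the 10 genes with 95% intervals, for IL-4 within each genotype (left) and for genotype within each state (right), on axes of different range. Filled points were called and open points were not; 7 genes were called for IL-4 in each genotype and none for genotype.

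Whether the response to IL-4 differed between genotypes was tested as an interaction over all 12 libraries. None of the 10 genes was called, and none had an unadjusted p under 0.05. Over all 14825 genes 0 were called by edgeR, or 0%, with 1327 at an unadjusted p under 0.05, and 72 were called by DESeq2, none of them among the 10. Socs1 had the smallest p of the 10. Its interaction was -0.39 on the log2 scale (95% interval -0.81 to 0.04, adjusted p = 0.60 by edgeR). The interaction of Cish was -0.18 (95% interval -0.59 to 0.23), that of Il13ra1 -0.16 (-0.46 to 0.13) and that of Il4ra 0.13 (-0.15 to 0.42). For Socs3 it was -0.49 (95% interval -1.42 to 0.45) and became 0.07 without the third KO M0 library. The comparisons for IL-4 and for genotype share libraries, and their values are therefore only set side by side.

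Other genes of the pathway were counted from lists by role. The IL-4 counts of each list below have to be read against the shares over all genes that could be called. These were 45.4% in WT (23.6% higher and 21.8% lower) and 36.6% in KO (18.5% higher and 18.1% lower). Of the ligands, Il13 had 0 counts in all 12 libraries, which allows up to 0.378 CPM in the library with the fewest counts, and Il4 had 3 to 11 counts in the 3 libraries of each group. The decoy receptor Il13ra2 had 1 count in all, so that none of these 3 genes was tested. Of 7 receptors that use the common gamma chain or, as Crlf2, resemble it, 4 were tested, and IL-4 raised 2 and lowered 2 of them in each genotype. The IL-7 receptor chain Il7r rose (log2 fold change 1.22 in WT and 1.42 in KO), and Il21r (-1.02 and -1.27) and Il15ra (-0.85 and -0.75) fell. The fourth, Crlf2, a chain of the TSLP receptor, rose by 0.83 and 0.67 and was named after its values were seen.

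Of 7 further JAK and STAT genes, 2 rose and 4 fell in each genotype. Jak2, a kinase that the type II receptor can use, rose from 73.0 to 84.9 CPM in WT M0 to 160.0 to 177 CPM in WT M2 (log2 fold change 1.13 in WT and 1.29 in KO). Stat4, the factor of IL-12 signaling, fell (-1.82 and -2.07). Of 5 other SOCS genes, Socs2 and Socs5 rose in each genotype and the rest were not called. Socs2, which acts back on growth hormone signaling, had 12 counts in the 3 WT M0 and 16 in the 3 KO M0 libraries. It reached 45.4 to 54.8 CPM in WT M2 and 40.7 to 45.4 CPM in KO M2, and the log2 fold change was 6.80 in WT (SE 0.23) and 6.29 in KO (SE 0.23), where it was 7.04 without KO M0 library 2. Socs5 rose by 0.61 in WT and in KO. The SOCS genes of the mouse thus moved apart with IL-4, with Socs1, Socs2, Socs5 and Cish called higher and Socs3 called lower.

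Of 13 phosphatases, PIAS genes and other brakes of the pathway, 2 rose and 4 fell in WT and 3 rose and 3 fell in KO. Over all genes that could be called, 45.4% were called in WT and 36.6% in KO. Ptpn2, a phosphatase of JAK and STAT proteins, rose (0.87 in WT and 0.83 in KO), and so did the ubiquitin ligase gene Rnf128 (1.08 and 0.46). Inpp5d, which encodes the lipid phosphatase SHIP1, fell (-0.61 and -0.45). Of 14 insulin receptor substrate, PI3K and adaptor genes 12 were tested, and 3 rose in each genotype while 4 fell in WT and 3 in KO. The adaptors Dok2 (1.67 and 1.36) and Shc1 (1.61 and 1.41) rose, and Pik3r5, a regulatory subunit of PI3K gamma, fell (-0.53 and -0.58). Of 5 STAT6 cofactors, Parp14, a coactivator of STAT6, fell in each genotype (-1.33 and -0.94), and in WT Ep300 also fell and Snd1 rose. The last 2 were named after their values were seen, and the difference between genotypes was not called by the interaction for either.

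The known STAT6 targets were counted last. Of 24, 1 could not be matched to the tables, and 20 were tested for IL-4. In each genotype 18 of these rose, and Jmjd1c and Kdm6b, which encode jumonji-domain proteins, were called lower in WT (-0.28 and -0.43) and not in KO (-0.17 and -0.65), and the interaction was not called for either (adjusted p = 0.79 and 0.90 by edgeR). The median log2 fold change was 3.23 in WT and 3.15 in KO, and was the same with the genes absent from M0 at their bounds, all of which lay above it. Many of these targets were at or near 0 in M0, so that their folds are bounds or have wide counting intervals. Retnla, which encodes the secreted protein FIZZ1, had 0 counts in M0 of either genotype and 11268 counts in WT M2 and 9784 in KO M2, at least 3849-fold higher in WT and at least 3652-fold higher in KO against a floor of 3 counts over the 3 libraries. Cdh1, the gene of E-cadherin, also had 0 counts in M0 and was at least 217-fold higher in WT M2 and at least 237-fold higher in KO M2. Chil3, which encodes the chitinase-like protein Ym1, had 3 counts in WT M0 and 45400 in WT M2, a ratio of 15510 with an exact counting interval of 5307 to 75211. All 3 of these M0 counts lay in WT M0 library 1, so that without it WT M0 had 0 counts too. In KO it had 0 and 37654 counts and was at least 14054-fold higher. For genotype, Flt1 was called among these targets in M2. Flt1, which encodes a receptor of VEGF, had 1 count in WT M0 and 2 in KO M0. It was at 56.5, 51.5 and 80.3 CPM in WT M2 and at 35.8, 26.6 and 38.0 CPM in KO M2 (log2 fold change -0.91, SE 0.15, adjusted p = 0.0060 by edgeR). It lost the call without KO M2 library 2 (adjusted p = 0.087). None of the listed genes was called by the interaction in edgeR.

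**Figure D4:**
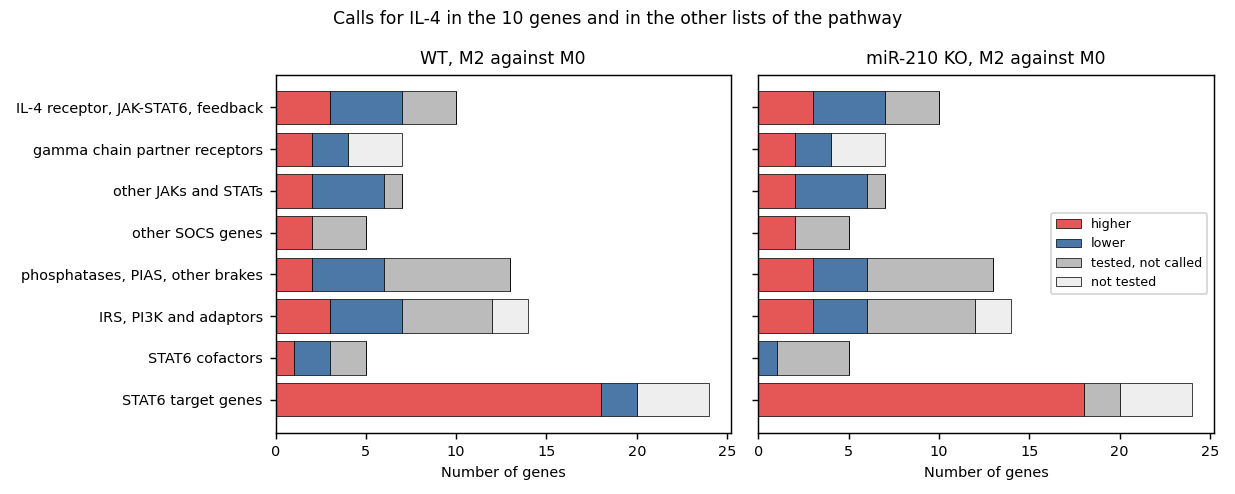
Number of genes called higher or lower with IL-4, tested but not called, and not tested, in the 10 genes and in each list by role, for WT (left) and KO (right). The 10 genes show 3 higher, 4 lower and 3 not called in each genotype, and the STAT6 targets 18 higher in each. Over all genes that could be called, 45.4% were called in WT and 36.6% in KO.

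The genes whose levels over the 12 libraries were most like those of 4 members were found by Pearson's r of log2 CPM over 11373 protein-coding genes. This is a description, since the 12 libraries share the separation of M0 from M2, and how far it sets each r was not tested. For Il4ra the nearest were Apoe, Selenop and Lst1 (r of 0.995, 0.993 and 0.992). For Cish they were Tspan5, F10 and Tmem26 (0.999 for each), and for Socs1 Hebp2, Clec7a and Acp5 (0.998 for each). For Stat6, whose levels did not separate the states, they were Wdr73, Srek1ip1 and Zcchc10 (0.938, 0.889 and 0.884).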

How the data were processed

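RNA from 12 macrophage libraries was sequenced for the authors by the company Novogene, after ribosomal RNA depletion, as stranded paired-end libraries. The submitters' processing notes name Trimmomatic, Picard, STAR, featureCounts and DESeq2 and the build GRCm39. The authors deposited raw counts per gene, without normalization, in tables for pairs of groups. Beside them the authors deposited normalized counts, a signal scaled by size factors, which served only as an alternative for levels. The 12 columns repeated between tables were identical. Of 56941 genes, 56323 matched the annotation (GENCODE vM39) used here for names, lengths and starts.

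Counts were tested with edgeR 4.0.16 in R 4.3.3 (filterByExpr, TMM, glmQLFit, glmQLFTest), with Benjamini-Hochberg adjustment over all genes fitted, 2 groups per fit or all 4 for the interaction. The fits were tested on simulated data. Alternatives were DESeq2 1.42.0, RLE scaling, no filter, a fit of all 12 libraries, a block for the library number, a log2 limit of 1, no limit to protein-coding genes or average count, each library left out, deposited normalized counts and transcript length. Levels are TMM-scaled CPM, per kb of the union of exons where genes are compared. The SE is the absolute log2 fold change divided by the square root of edgeR's F statistic. Intervals are this SE times the t quantile. The count floor is 3 counts, and the counting intervals and floors cover counting error only. Removal of duplicate reads, done before deposit with Picard, can lower the counts of abundant genes more than those of rare ones.

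The members and lists were chosen with earlier results of these data known. All 10 members were named in every library. From each list, the genes called for genotype and at most 3 genes with the largest absolute change among those called for IL-4 in both genotypes were named, as were the most abundant marker of each cell type and those at 0. For Il4ra, Stat6, Socs1 and Cish, the 3 genes with the highest correlation were named. Some genes that these rules name are not reported here.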

Additional observations from a re-analysis of the deposited data

How the results depend on the processing

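None of the 10 genes was called for genotype in M0 or M2 or by the interaction under any alternative, and 7 were called for IL-4 in each genotype under all but 1. A log2 limit of 1 left 3 in WT and 4 in KO. Leaving out each library in turn gave 7 called for IL-4 in each genotype every time and 0 otherwise. Apart from that limit, no alternative changed the call of a member, and 34 values of members that were not called changed sign. With RLE scaling the M0 genotype value of Jak1 became -2.1e-05, and with a block for the library number it became -0.00018. For the M2 genotype difference, Il13ra1 became -0.00033 with DESeq2 and -0.0039 with all 12 libraries fitted. Without a filter the WT polarization value of Jak1 became 0.0027. Leaving out each library in turn gave, for genotype in M0, Il4ra -0.032 to 0.11, Il2rg -0.061 to 0.13, Jak1 -0.023 to 0.043, Tyk2 -0.079 to 0.058 and Socs3 -0.44 to 0.40. For genotype in M2 it gave Il13ra1 -0.074 to 0.12, Il2rg -0.098 to 0.034 and Stat6 -0.037 to 0.046. For IL-4 it gave Jak1 -0.042 to 0.014 in WT and -0.015 to 0.064 in KO, and in KO Tyk2 -0.0092 to 0.069 and Stat6 -0.051 to 0.0099. For the interaction it gave Il2rg -0.18 to 0.0094, Stat6 -0.011 to 0.077 and Socs3 -0.76 to 0.074. The cause of these changes was not tested. The labels do not say whether the library numbers pair the samples. Same-number deviations correlated at -0.26 to 0.35, but they were not compared with those of different numbers, so this cannot settle it. The replicate block changed no call of a member. Over all genes the genotype calls moved more. In M0, 65 genes were called, against 219 with DESeq2, 532 without a filter, 248 with all 12 libraries fitted, 284 with the block, 27 with the log2 limit of 1 and 20 to 302 when a library was left out. In M2, 137 were called, against 360, 60, 289, 40 and 53 to 215 without a filter, with all 12 libraries, with the block, with the limit of 1 and with a library left out. The interaction called 0 genes, 72 with DESeq2, 341 without a filter and 0 to 77 when a library was left out. With the limit of 1, IL-4 calls went from 5055 to 1446 in WT and from 4065 to 1292 in KO. The deposited normalized counts moved log2 ratios of group means by -0.015 to 0.022. The genes selected by rule outside the 10 were put through 11 of these alternatives, without the log2 limit of 1 and the lifted limit to protein-coding genes, after their values were seen. All 18 selected for IL-4 kept their calls in both genotypes, while Flt1 lost its genotype call in M2 without KO M2 library 2.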
